A study of Mus musculus with 3 samples.

Results

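The colony stimulating factors (CSFs) are the secreted proteins that bone marrow needs to make and keep myeloid cells, and the set described here is made up of the genes for 4 of these ligands and for the receptor chains that bind them. The ligands are Csf1 (macrophage CSF, M-CSF), Il34 (interleukin 34), Csf2 (granulocyte-macrophage CSF, GM-CSF) and Csf3 (granulocyte CSF, G-CSF). The receptor genes are Csf1r, Csf2ra, Csf2rb and Csf3r. They were taken by gene symbol and not by their measured values, though earlier results of these data were known when the set was chosen. All 8 were found once each among the 27998 genes of the count matrices.

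CSF1 and IL-34 are different in sequence but bind the same receptor tyrosine kinase, CSF1R, on which monocytes and macrophages depend. Osteoclasts need the same receptor to form. GM-CSF binds a complex of the ligand-specific α chain, encoded by Csf2ra, and the signalling β common chain, encoded by Csf2rb, which also serves the receptors for IL-3 and IL-5. G-CSF binds the single-chain receptor encoded by Csf3r, which drives neutrophil production and release from the marrow. The GM-CSF and G-CSF receptors signal through JAK kinases and STAT factors.

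The cells came from male C57BL/6J mice of 10 weeks that had received a burn of the back and a transection of the Achilles tendon, and were taken on day 3 after injury. This injury leads to heterotopic ossification, that is bone outside the skeleton. There was 1 single-cell RNA library each from marrow flushed from the femurs, from the mononuclear fraction of blood and from the digested tendon injury site. The number of mice behind a library was not given in the sources used here, and no uninjured library was analysed. The blood was separated on a density gradient, so its neutrophils are those that stayed with the mononuclear cells, and the tendon alone was treated with enzymes. Tissue, preparation and library therefore cannot be told apart.

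After filtering, 1813 marrow, 2146 blood and 4780 tendon cells were kept, with a median over all deposited cells of 22836, 8316 and 11082 unique molecular identifiers (UMIs, each standing for 1 captured RNA molecule). The libraries shared between 1 and 6 cell barcodes per pair. Cells were clustered within each library and named from marker lists that hold none of the 8 genes, and the names end in "-like" because no deposited annotation was used. The neutrophil-like cells of each library had UMIs of all 13 neutrophil markers, which summed to 382948, 376104 and 193011 in counts-per-million units (CPM, the UMIs of a gene scaled by all UMIs of a class) in marrow, blood and tendon. The marrow neutrophil-like cells were 240 early precursors, 763 middle stage and 266 late stage cells. In blood there were 53 middle stage and 336 late stage cells, and in tendon all 560 were of the late stage. Monocyte/macrophage-like cells numbered 345 in marrow, 445 in blood and 2603 in tendon.

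Levels below are given in CPM over all cells of a class. Their 95% interval is an exact Poisson interval, and shares have exact binomial (Clopper-Pearson) intervals. All of these cover counting error only, since with 1 library per tissue there is no replicate and no test between tissues. Levels were compared between classes and libraries within a gene, and not between genes. Where the UMIs of a pair of receptor chains are given as a share, which is not scaled for transcript length, only the difference of this share between classes is read. A ratio was counted as past the 2-fold point when it was at least 2-fold either way in a gene with at least 20 UMIs in both groups together.

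Entries of the RefSeq promoter table of build GRCm38.p6 were used for 4 of the 8 genes (Csf1, Csf2, Csf2ra and Csf3r). The promoters of the other members were not examined, which does not mean that the table lacks them. The 250 bases before the RefSeq start are shown 5′ to 3′ for 3 of them. These are Csf3r and Csf2ra, receptor genes found in both neutrophil-like and monocyte-like classes, and Csf1, a ligand whose level differed between neutrophils of blood and tendon. Capitals mark matches to GAGGAAG, a core recognised by PU.1, in Csf3r and Csf2ra, and to an NF-kB motif (GGGA, any 4 bases, CC) in Csf1. Both strands were searched.
Csf3r, chr4:126024409-126024658, plus strand: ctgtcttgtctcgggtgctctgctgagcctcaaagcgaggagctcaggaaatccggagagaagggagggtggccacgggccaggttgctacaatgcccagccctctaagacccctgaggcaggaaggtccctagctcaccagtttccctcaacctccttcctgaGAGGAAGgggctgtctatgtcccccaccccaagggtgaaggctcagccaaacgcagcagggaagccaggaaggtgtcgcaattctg
Csf2ra, chr19:61228419-61228668, minus strand: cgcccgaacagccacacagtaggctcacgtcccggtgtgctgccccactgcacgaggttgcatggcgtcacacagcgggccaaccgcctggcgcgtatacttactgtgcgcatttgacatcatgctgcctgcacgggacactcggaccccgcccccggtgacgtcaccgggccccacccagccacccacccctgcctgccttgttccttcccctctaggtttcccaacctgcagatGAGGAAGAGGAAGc
Csf1, chr3:107760470-107760719, minus strand: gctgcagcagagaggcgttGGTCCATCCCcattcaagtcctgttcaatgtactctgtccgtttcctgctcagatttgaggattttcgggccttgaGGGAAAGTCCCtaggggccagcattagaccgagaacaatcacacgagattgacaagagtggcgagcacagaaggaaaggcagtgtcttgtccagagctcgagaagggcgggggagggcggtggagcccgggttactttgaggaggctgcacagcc

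The Csf3r window held 1 match to GAGGAAG, from 86 to 80 bases before the start on the gene's own strand. The Csf2ra window held 2 matches that overlap by 1 base, ending 2 bases before the start. GAGGAAG lay in 10.6% of the 32851 promoter windows of this length. The Csf1 window held no GAGGAAG but 3 matches to the NF-kB motif, 2 of which overlap as 1 stretch on opposite strands. This motif lay in 17.6% of all windows, and 1 match was also in that of Csf3r. Motifs for C/EBP and AP-1 factors and a TATA motif were searched as well. Of these only the C/EBP motif matched in windows of the members, in Csf2ra and Csf2, and it lay in 36.8% of all windows. The Csf2 window (chr11:54249900-54250149, minus strand), which is not shown, held no match to GAGGAAG or the NF-kB motif. In the GENCODE M21 annotation Csf2 starts downstream of this window, at base 54249667. The bases just before that start were not searched for any motif. The matches are letters in a window and say nothing of binding. In the GENCODE M21 annotation Csf3r (chr4:126024550-126044440) and Csf2ra (chr19:61223957-61228429) begin upstream of the RefSeq start used here, inside the printed windows. By that annotation the GAGGAAG match of Csf3r lies after the gene's start, and those of Csf2ra lie across and after it.

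Among the ligands, Csf1 (ENSMUSG00000014599, chr3:107741048-107760469, minus strand) was found in all 3 libraries, with 160 UMIs in marrow, 317 in blood and 3911 in tendon. In tendon it was mainly a gene of the stroma. Fibroblast-like and tenocyte-like cells together held 77.7% of its UMIs in kept tendon cells, and neutrophil-like cells held 12.1% (95% interval 11.03 to 13.17%). The fibroblast-like cells stood at 109 CPM (105 to 113), with a UMI in 78.4% of the 663 cells. The tenocyte-like cells followed at 63.6 CPM, the mural-like cells, which wrap small vessels, at 34.7 CPM and the endothelial-like cells at 14.8 CPM. Macrophage-like and classical monocyte-like cells of tendon, which carry the receptor, were at 2.11 and 2.25 CPM. Over 3 larger fibroblast-like clusters the level ran from 50.8 to 127 CPM.

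Per UMI the neutrophil-like cells of tendon were above the fibroblast-like cells. The late stage neutrophil-like cells held 2.40 CPM of Csf1 in marrow (8 UMIs), 42.1 CPM in blood (117 UMIs) and 197 CPM in tendon (441 UMIs), and none of the 3 intervals overlap. Blood was 17.6-fold above marrow (log2 ratio 4.14, 3.11 to 5.38). Tendon was 4.67-fold above blood (log2 ratio 2.22, 1.93 to 2.53). After thinning every cell to 1000 UMIs, 16.1% of the tendon cells (13.1 to 19.5%) and 3.904% of the blood cells (2.09 to 6.58%) had a UMI, while 0 of 263 marrow cells did. Unthinned shares were 29.3, 17.0 and 3.01%, at medians of 3492, 8119 and 12412 UMIs per cell. When cells were named one by one instead of by cluster, the tendon-to-blood ratio with every neutrophil-like cell counted went from a log2 of 2.52 to 1.78.

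Within tendon the Csf1 level was uneven among neutrophil-like cells. A cluster of 457 cells led by Irg1, which encodes the enzyme that makes itaconate, stood at 253 CPM, and the other, of 103 cells led by Retnlg, at 26.8 CPM (15.02 to 44.25), which overlaps the interval of late stage cells of blood (34.8 to 50.4). The 5 cells with most Csf1 held 15.6% of the UMIs of the class. All 8 fibroblast markers had UMIs in the tendon neutrophil-like cells. They summed to 189 CPM, 0.838% of their level in the fibroblast/tenocyte-like cells, and Csf1 stood at 182% of its level there. The part of fibroblast RNA in the neutrophil Csf1 level was not tested. Of 8 basophil and mast cell markers, 6, among them Mcpt8 and Fcer1a, had no UMI in the tendon neutrophil-like cells. Hdc, also on that list, was among the leading genes of both clusters. The part of basophil or mast cell RNA in the neutrophil Csf1 level was not tested.

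The highest Csf1 level of any class belonged to a small one. The 34 basophil/mast cell-like cells of blood were at 651 CPM (549 to 766), with a UMI in 30 cells, and held 145 of the Csf1 UMIs of blood. All 8 markers of this class were present. The 10 cells of the same name in tendon were at 277 CPM (127 to 526), from 9 UMIs. In marrow no cluster took this name. An unnamed cluster of 33 cells led by Prss34, Car1, Mcpt8, Car2 and Cpa3 held 63.9 CPM of Csf1, against 2.68 CPM or less in the neutrophil-like stages of marrow. The unnamed cluster held 6 of 8 stem and progenitor markers and 4 of 8 basophil and mast cell markers, and was named as neither. Car2 is also on the list of erythroid markers.

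**Figure D1:**
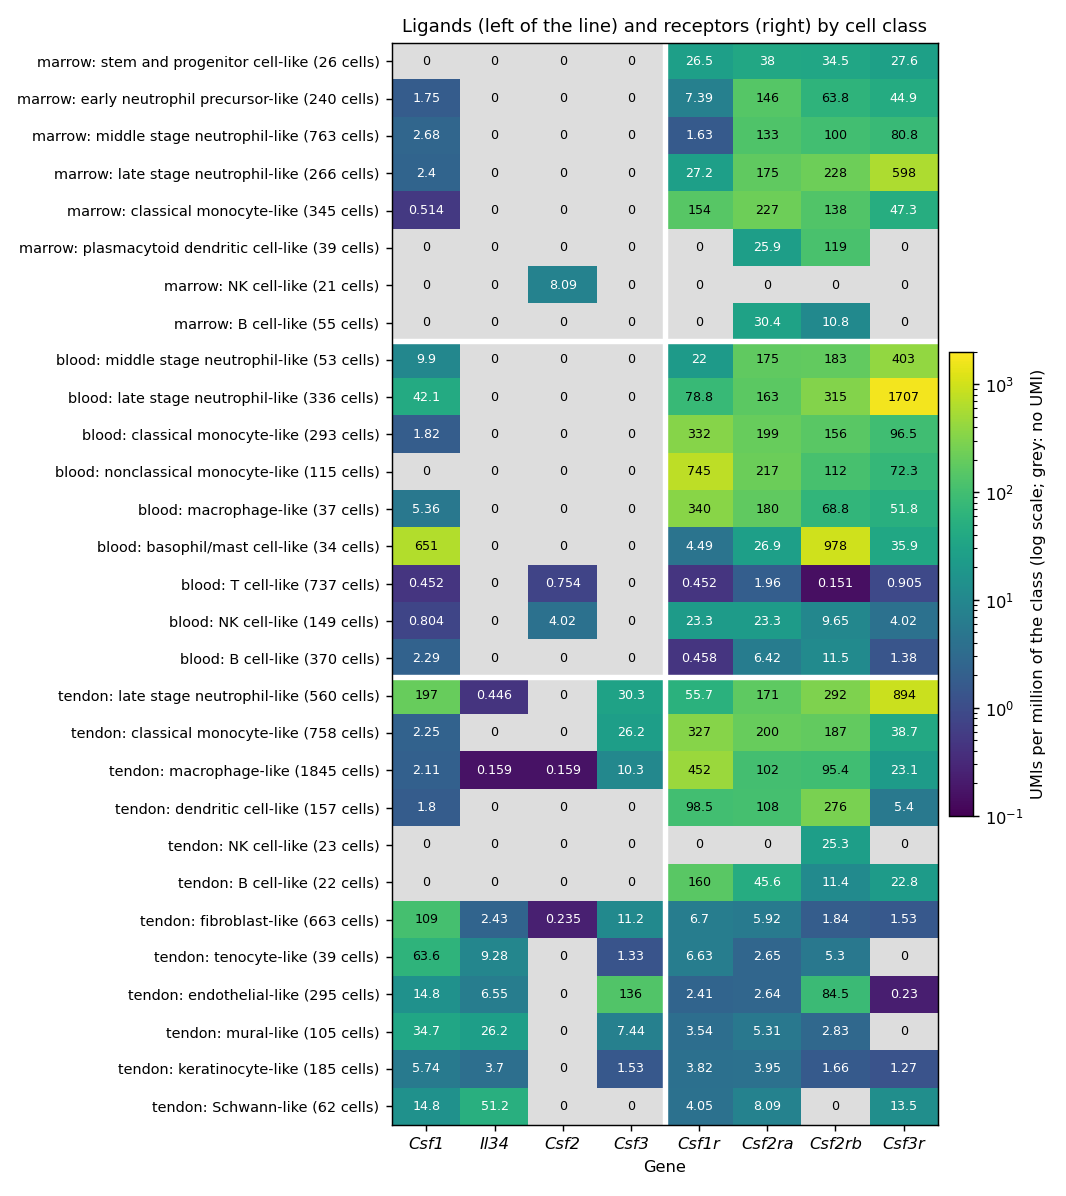
Heat map of the level of each of the 8 genes (columns, ligands left of the white line) in every named cell class of at least 20 cells (rows, grouped by library), in CPM (UMIs of the gene scaled by all UMIs of the class) on a log colour scale, with the value printed in each cell and grey for no UMI. Csf1 peaks in basophil/mast cell-like cells of blood at 651, Csf3 in endothelial-like cells of tendon at 136, Csf1r in nonclassical monocyte-like cells of blood at 745 and Csf3r in late stage neutrophil-like cells of blood at 1707.

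Il34 (ENSMUSG00000031750, chr8:110741829-110805924, minus strand) was a tendon gene in these data. It had 304 UMIs there and none in the other libraries, where a count of 0 allows up to 0.0619 CPM in marrow and 0.137 CPM in blood. No Schwann-like, mural-like, endothelial-like, fibroblast/tenocyte-like or keratinocyte-like class was named in marrow or blood. The zero counts there therefore do not speak for such cells. Within tendon, the Il34 level followed nerve and vessel wall more than fibroblasts. Schwann-like cells, the glia of peripheral nerve, were highest at 51.2 CPM (36.3 to 70.3, 38 UMIs), followed by mural-like cells at 26.2 CPM (20.6 to 32.9, 74 UMIs), and these intervals do not overlap. The 5 cells with most Il34 held 55.3% of the Schwann-like UMIs and 29.7% of the mural-like UMIs. The counting intervals do not cover this spread between cells. Tenocyte-like, muscle-like and endothelial-like cells were at 9.28, 9.10 and 6.55 CPM and their intervals overlap. Keratinocyte-like cells, the epidermal cells in which IL-34 is known to sustain Langerhans cells, were at 3.70 CPM, and fibroblast-like cells at 2.43 CPM. In macrophage-like cells 4 UMIs gave 0.159 CPM.

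No single class held most of the Il34 UMIs. Mural-like cells had 26.6%, fibroblast/tenocyte-like cells 24.8%, endothelial-like cells 20.5%, Schwann-like cells 13.7% and keratinocyte-like cells 10.4%. All 57 endothelial UMIs lay in the larger endothelial-like cluster. In a fibroblast-like cluster of 17 cells led by Sfrp5 and Apod, 11 UMIs gave 28.4 CPM, against 3.35 CPM or less in the 3 larger fibroblast-like clusters. The ligands of CSF1R thus differed in the order of their classes, as the Schwann-like cells, highest for Il34, held 14.8 CPM of Csf1 (7.41 to 26.5), and the fibroblast-like cells, highest of the tendon stroma for Csf1, came after 6 classes for Il34.

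Csf2 (ENSMUSG00000018916, chr11:54247271-54249667, minus strand) was rare in every library, with 3 UMIs in marrow, 10 in blood and 38 in tendon. In kept tendon cells 26 of 36 UMIs (72.2%, 54.8 to 85.8%) lay in the class of T, NK and innate lymphoid-like cells, and all of those in 3 cells of an 8-cell innate lymphoid-like cluster. That cluster was at 787 CPM (514 to 1154). It also held 34 UMIs of Il5, which was 1 of the markers that gave it its name. The other tendon UMIs included 6 in fibroblast-like cells and 4 in a single macrophage-like cell. Blood had 5 in NK cell-like and 5 in T cell-like cells. None was seen in the 560 neutrophil-like cells of tendon, which allows a share of cells with a UMI of up to 0.536%, nor in the 295 endothelial-like cells, which allows up to 1.02%. These limits are on cells with a UMI and not on cells that express the gene.

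Csf3 (ENSMUSG00000038067, chr11:98701263-98703629, plus strand) was detected only in the tendon library, with 2173 UMIs there. No endothelial-like or fibroblast/tenocyte-like class was named in marrow or blood, so such cells were not compared between tissues. The main source of Csf3 in tendon was the endothelium. Endothelial-like cells held 58.0% of its UMIs in kept cells (55.8 to 60.1%), at 136 CPM (128 to 144). The expression was concentrated in few cells: 102 of 295 endothelial-like cells had a UMI, 1 had 89, and the 5 highest held 27.6% of the UMIs of the class. The larger cluster of 262 cells stood at 141 CPM, and the cluster of 33 cells with lymphatic markers at 73.6 CPM.

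Leukocytes and stroma of the injury site had Csf3 at lower levels. Late stage neutrophil-like cells were at 30.3 CPM (23.5 to 38.4), classical monocyte-like cells at 26.2 CPM (22.8 to 29.99), fibroblast-like cells at 11.2 CPM and macrophage-like cells at 10.3 CPM. Within the neutrophil-like and classical monocyte-like pair, and within the fibroblast-like and macrophage-like pair, the intervals overlap, while between the pairs they do not. Single clusters crossed these pairs. Neutrophil-like clusters stood at 8.94 and 37.4 CPM, classical monocyte-like clusters at 17.7 and 35.2 CPM, and macrophage-like clusters ran from 1.78 to 19.8 CPM. The 5 cells with most Csf3 held 33.8% of the neutrophil-like UMIs. The macrophage-like cells were 2.53-fold below the classical monocyte-like cells (log2 ratio -1.34, -1.61 to -1.07), where the median of all genes was at 0.43. Fibroblast-like clusters differed, at 1.67 to 26.1 CPM. Mural-like cells were at 7.44 CPM and keratinocyte-like cells at 1.53 CPM. Schwann-like and dendritic cell-like cells had no UMI.

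Set against the floor of 3 counts over the class in blood, Csf3 was at least 28.1-fold higher in late stage neutrophil-like cells and at least 48.0-fold higher in classical monocyte-like cells of tendon. The 7 endothelial markers summed to 0.306% of their endothelial level in neutrophil-like, 0.619% in monocyte/macrophage-like and 1.15% in fibroblast/tenocyte-like cells of tendon, and Csf3 stood at 22.3%, 10.4% and 8.02% of its endothelial level. In keratinocyte-like cells the corresponding values were 0.360% and 1.12%. The part of endothelial RNA in the Csf3 levels of the other classes was not tested.

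**Figure D2:**
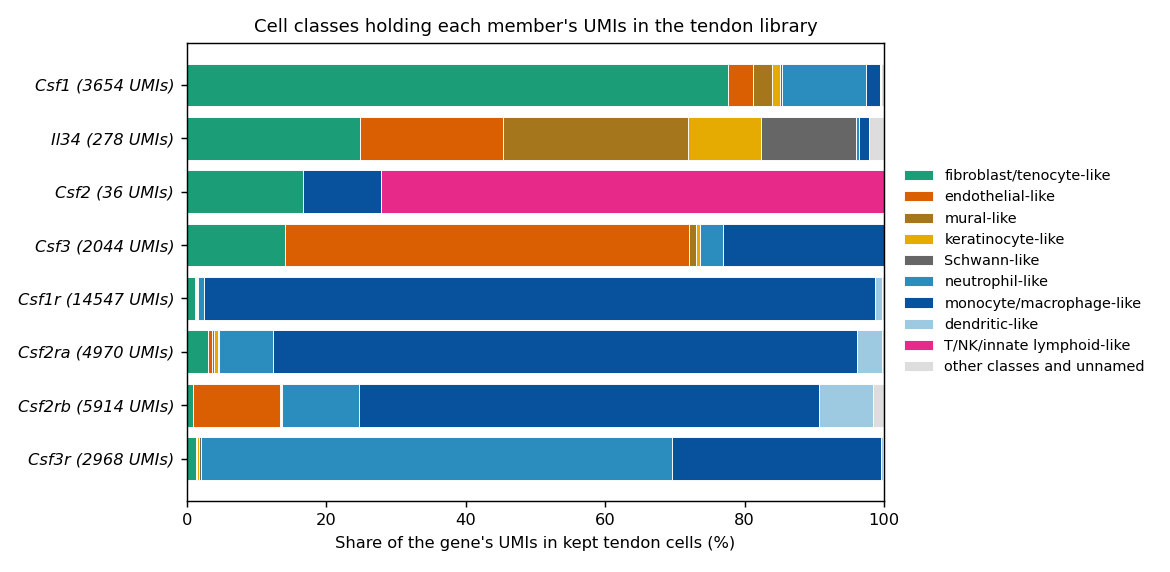
Share of each gene's UMIs in kept tendon cells (percent) that lay in each broad cell class. Csf1 lay mostly in fibroblast/tenocyte-like cells (77.7%), Csf3 in endothelial-like cells (58.0%), Csf1r in monocyte/macrophage-like cells (96.2%) and Csf3r in neutrophil-like cells (67.6%), while Il34 was spread over 5 classes.

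Csf1r (ENSMUSG00000024621, chr18:61100598-61132149, plus strand) had 1863, 3293 and 15348 UMIs in marrow, blood and tendon. In tendon, monocyte/macrophage-like cells, 2603 of the 4780 kept cells, held 96.2% of its UMIs, or 87.6% when cells were named one by one. Nonclassical monocyte-like cells of blood, the patrolling monocytes, were highest at 745 CPM (691 to 803). Tendon macrophage-like cells came next at 452 CPM (444 to 460). The blood macrophage-like cells, 37 cells led by Prg4, C1qa and C1qc, stood at 340 CPM, and whether they circulated was not tested. Their interval and those of the classical monocyte-like cells of blood at 332 CPM and of tendon at 327 CPM overlapped. The classical monocyte-like cells of marrow were at 154 CPM (147 to 162).

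Thus the Csf1r level of classical monocyte-like cells was 2.15-fold higher in blood than in marrow (log2 ratio 1.11, 1.007 to 1.21) and close to equal in blood and tendon (log2 ratio -0.02, -0.11 to 0.07). The 3 classical monocyte-like clusters of marrow ran from 101 to 254 CPM, all below the blood level. Macrophage-like cells of tendon were 1.38-fold above the classical monocyte-like cells beside them (log2 ratio 0.47, 0.40 to 0.53), where the median of all genes was 0.43. Their 8 clusters ran from 269 to 626 CPM.

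Neutrophil-like cells also carried Csf1r. The late stage cells were at 27.2 CPM in marrow, 78.8 CPM in blood and 55.7 CPM in tendon, and no pair of these intervals overlaps. Their clusters stood at 16.9 and 39.7 CPM in marrow and at 37.6 and 61.7 CPM in tendon, so the cluster ranges of these tissues overlap. The middle stage of marrow was at 1.63 CPM, 16.7-fold below the late stage (log2 ratio 4.06, 3.47 to 4.68). Monocyte and macrophage markers, a list that includes Lyz2, which neutrophils also express, summed in tendon neutrophil-like cells to 11.2% of their level in monocyte/macrophage-like cells, and Csf1r to 13.2%. Their part in the neutrophil Csf1r level was not tested. Fibroblast-like cells, which are not known to need the receptor, gave 6.70 CPM, with a UMI in 14.2% of cells at a median of 35569 UMIs per cell, and tendon macrophage-like cells had one in 89.3% at a median of 13042. The 160 CPM of the tendon B cell-like cells came from 14 UMIs in 2 cells.

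**Figure D3:**
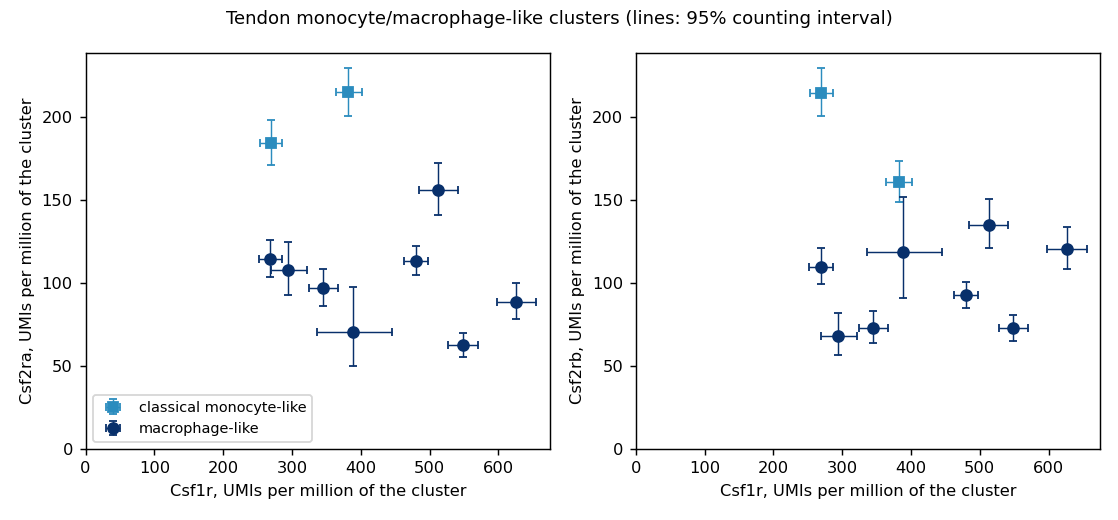
Each point is a cluster of the tendon library (squares classical monocyte-like, circles macrophage-like), with its Csf1r level on the horizontal axis and its Csf2ra (left) or Csf2rb (right) level on the vertical axis, all in CPM with 95% counting intervals. Csf1r runs from 269 to 626 over the 8 macrophage-like clusters, all of which lie below the classical monocyte-like clusters in Csf2ra (62.5 to 156 against 184 and 215) and Csf2rb (68.2 to 135 against 161 and 215).

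Csf2ra (ENSMUSG00000059326, minus strand), the α chain of the GM-CSF receptor, had 7415, 2259 and 5310 UMIs in marrow, blood and tendon and was the most evenly spread member among myeloid classes. The late stage neutrophil-like cells were at 175 CPM in marrow, 163 CPM in blood and 171 CPM in tendon, with overlapping intervals. Early precursors were at 146 CPM and the middle stage of marrow at 133 CPM. Classical monocyte-like cells were at 227, 199 and 200 CPM in marrow, blood and tendon. The level was lower in macrophage-like cells of tendon, at 102 CPM (98.0 to 106), 1.96-fold below the classical monocyte-like cells (log2 ratio -0.97, -1.06 to -0.88), and all 8 macrophage-like clusters (62.5 to 156 CPM) lay under both classical monocyte-like clusters (184 and 215 CPM). Outside the myeloid classes, fibroblast-like cells were at 5.92 CPM and endothelial-like cells at 2.64 CPM.

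Csf2rb (ENSMUSG00000071713, chr15:78325752-78353847, plus strand), the β common chain, had 5225, 2447 and 6291 UMIs. Basophil/mast cell-like cells, whose kind responds to IL-3, were highest. Those of blood stood at 978 CPM (853 to 1117) and the 10 of tendon at 708 CPM (449 to 1062). The late stage neutrophil-like cells followed at 228 CPM in marrow, 315 CPM in blood and 292 CPM in tendon, where the blood and tendon intervals overlap and that of marrow lies below both. Tendon dendritic cell-like cells were at 276 CPM. As with the α chain, tendon macrophage-like cells, at 95.4 CPM, were 1.96-fold below the classical monocyte-like cells, at 187 CPM (log2 ratio -0.97, -1.07 to -0.88).

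The balance of the GM-CSF receptor chains shifted along the neutrophil stages. Csf2rb made up 30.4% of the UMIs of both chains in early precursors, 43.0% in the middle stage and 56.6% in the late stage of marrow, then 66.0% in late stage cells of blood and 63.1% in those of tendon. From the middle to the late stage in marrow Csf2ra differed 1.32-fold (log2 ratio 0.40, 0.27 to 0.53) and Csf2rb 2.28-fold (log2 ratio 1.19, 1.07 to 1.31). Among neutrophil-like cells, UMIs of both chains were seen in 80.3% of those in marrow, 64.3% in blood and 27.9% in tendon, whose depth falls in the same order, so the difference in these shares cannot be told apart from depth.

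Endothelial-like cells of tendon had a larger Csf2rb share than the neutrophil-like stages. Csf2rb was at 84.5 CPM (78.5 to 90.9), with a UMI in 155 of 295 cells, and made up 97.0% of the UMIs of both chains (95.5 to 98.1%). All 736 UMIs lay in the larger cluster, at 91.5 CPM, and none in the 33 cells with lymphatic markers. Neutrophil markers stood in endothelial-like cells at 0.0750% of their neutrophil level and monocyte and macrophage markers at 0.970% of theirs, and Csf2rb was at 29.0% and 71.9% of its levels in those classes. The part of leukocyte RNA in the endothelial Csf2rb level was not tested. Il3ra, the α chain of the IL-3 receptor, was at 30.4 CPM in endothelial-like cells and at 144 CPM in basophil/mast cell-like cells of blood, where Csf2rb made up 97.3% of the GM-CSF receptor UMIs. No UMI of Il3 itself was found in any class.

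Csf2rb has a neighbouring copy, Csf2rb2 (chr15:78282507-78305721, minus strand), which in mice encodes a β chain used by the IL-3 receptor. Of the 4851 windows of 50 bases in the longest Csf2rb transcript, 18.4% also occur in that of Csf2rb2, but of the 951 in its last 1000 bases, where 3′ libraries have most reads, 0 do. Csf2rb2 stood at 41.9 CPM in endothelial-like cells, 314 CPM in basophil/mast cell-like cells of blood and 239 CPM in plasmacytoid dendritic cell-like cells of tendon. With both genes added, the tendon-to-blood log2 ratio in monocyte/macrophage-like cells went from -0.23 to -0.06.

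Csf3r (ENSMUSG00000028859, chr4:126024550-126044440, plus strand), the G-CSF receptor, had 4753, 5957 and 3221 UMIs in marrow, blood and tendon and followed the neutrophil stages. Early precursors of marrow were at 44.9 CPM, the middle stage at 80.8 CPM (76.9 to 84.8) and the late stage at 598 CPM (572 to 624). The late stage was 7.40-fold above the middle stage (log2 ratio 2.89, 2.79 to 2.98). The late stage clusters of marrow were themselves unequal, at 313 and 942 CPM. In blood the middle stage was at 403 CPM and the late stage at 1707 CPM (1658 to 1756), the highest level of any class. Late stage cells of tendon were at 894 CPM (855 to 934), with clusters at 869 and 902 CPM.

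Thus, at the late stage, Csf3r was 2.86-fold higher in blood than in marrow (log2 ratio 1.51, 1.44 to 1.59) and 1.91-fold lower in tendon than in blood (log2 ratio -0.93, -1.009 to -0.86). After thinning to 1000 UMIs, a UMI was found in 50.6% of late stage cells of marrow, 80.8% of blood (76.1 to 84.9%) and 55.8% of tendon (51.5 to 60.1%), against 0.151% of tendon fibroblast-like cells. Unthinned, the shares were 99.2, 100, 86.4 and 2.11%. With every neutrophil-like cell counted, the tendon-to-blood log2 ratio stood at -0.63 (-0.71 to -0.56). It became -1.36 when cells were named one by one and -0.92 when the 50 most abundant genes were left out of the totals. The list of neutrophil markers was also lower in tendon, as given above, and its part in the ratio was not tested. The blood-to-marrow log2 ratio over all neutrophil-like cells, 3.53, compares different mixtures of stages.

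Csf3r was lower in the monocyte classes than in late stage neutrophil-like cells of the same library. Classical monocyte-like cells were at 47.3 CPM in marrow, 96.5 CPM in blood and 38.7 CPM in tendon, so that tendon was 2.50-fold below blood (log2 ratio -1.32, -1.53 to -1.11). Macrophage-like cells of tendon were at 23.1 CPM. Neutrophil markers in monocyte/macrophage-like cells of tendon summed to 1.49% of their neutrophil level, and Csf3r to 3.00%. In blood the same markers summed to 4404 CPM in monocyte/macrophage-like cells and in tendon to 2882 CPM. Their part in the monocyte Csf3r levels was not tested.

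**Figure D4:**
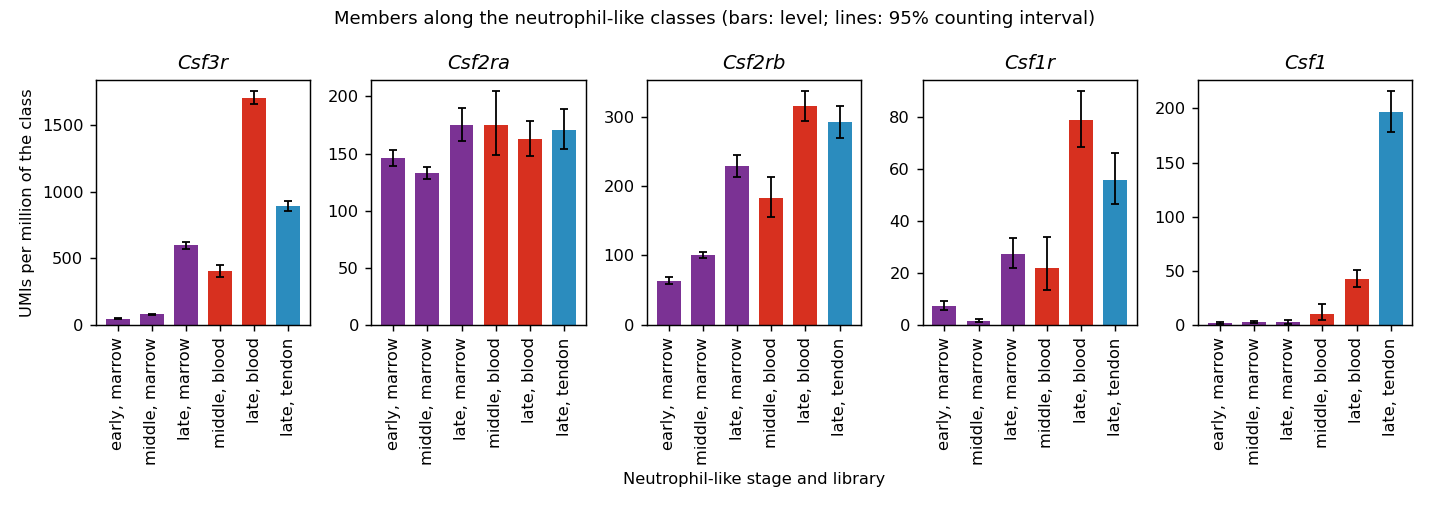
Bars give the level in CPM (linear axes from 0, lines are 95% counting intervals) of Csf3r, Csf2ra, Csf2rb, Csf1r and Csf1 in early, middle and late stage neutrophil-like cells of marrow, middle and late stage cells of blood and late stage cells of tendon, coloured by library. Csf3r runs from 44.9 in early precursors to 1707 in late stage cells of blood and 894 in those of tendon. Csf1 runs from 1.75 in early precursors of marrow to 197 in late stage cells of tendon, and Csf2ra stays between 133 and 175.

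Each count of members past the 2-fold point was set beside the share of all genes past it in the same comparison. Late stage neutrophil-like cells of blood had 3 of the 5 members with enough UMIs (Csf1, Csf1r and Csf3r) at least 2-fold above marrow, where 7.94% of all 6450 genes were, and 0 below, beside 5.69%. Those of tendon had 2 of 6 (Csf1 and Csf3) above blood, beside 17.9% of all 6425 genes, and 0 below, beside 15.1%. The step from the middle to the late stage in marrow had 3 of 5 higher (Csf1r, Csf2rb and Csf3r), beside 12.8%, and 0 lower, beside 32.2%.

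Classical monocyte-like cells of blood had 2 of 4 members above marrow (Csf1r and Csf3r), beside 5% of all genes, and 0 below, beside 12.8%. The Csf3r log2 ratio was 1.03 (0.85 to 1.21), an interval that reaches below 2-fold. Classical monocyte-like cells of tendon had 1 of 6 above blood (Csf3), beside 10.6%, and 1 below (Csf3r), beside 18%. Macrophage-like cells of tendon had 0 of 6 above the classical monocyte-like cells, beside 25.8%, and 1 below (Csf3), beside 4.46%.

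Over broad classes, neutrophil-like cells of tendon had 2 of 6 members above blood (Csf1 and Csf3), beside 16.5% of all genes, and 0 below, beside 15.7%. Those of blood had 4 of 5 above marrow (Csf1, Csf1r, Csf2rb and Csf3r), beside 13.9%, and 0 below, beside 41%. Monocyte/macrophage-like cells of tendon had 1 of 6 above blood (Csf3), beside 19.7%, and 1 below (Csf3r), beside 12.5%. Those of blood had 2 of 5 above marrow (Csf1 and Csf1r), beside 8.47%, and 0 below, beside 11%. Within tendon, neutrophil-like cells had 4 of 6 above monocyte/macrophage-like cells (Csf1, Csf3, Csf2rb and Csf3r), beside 11.1%, and 1 below (Csf1r), beside 52.1%. Fibroblast/tenocyte-like cells had 2 of 7 above the same cells (Csf1 and Il34), beside 30.8%, and 4 below (the receptor genes), beside 19.9%. Some of these calls had intervals that reach below 2-fold. Csf1 in monocyte/macrophage-like cells of blood over marrow had 16 and 5 UMIs (log2 ratio 2.04, 0.53 to 3.85). Csf3 in neutrophil-like over monocyte/macrophage-like cells of tendon had a log2 ratio of 1.10 (0.71 to 1.47).

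**Figure D5:**
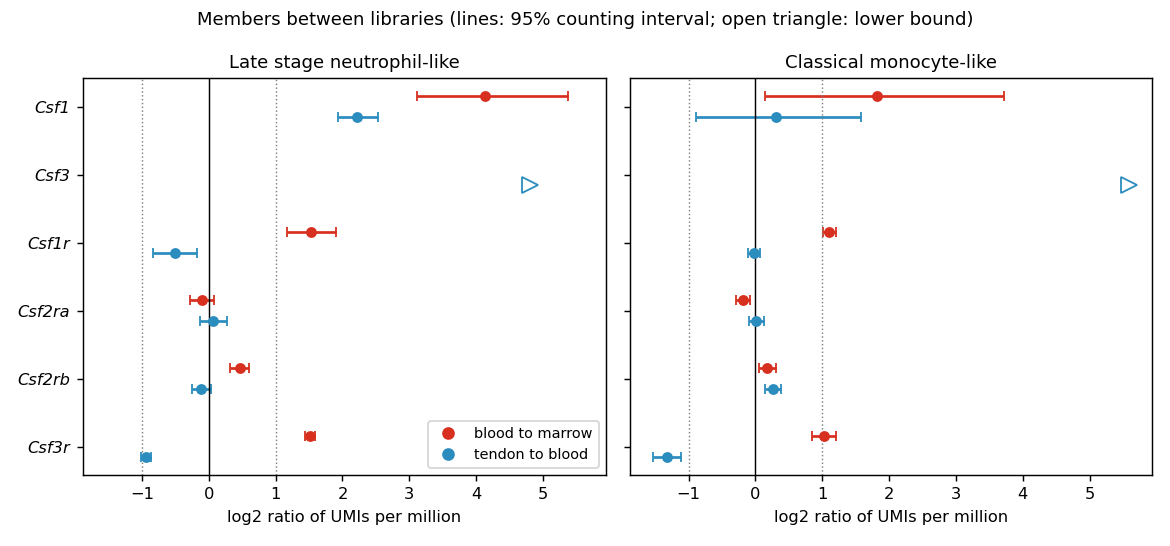
Log2 ratios of CPM, blood over marrow (red) and tendon over blood (blue), for 6 of the genes in late stage neutrophil-like (left) and classical monocyte-like cells (right), with 95% counting intervals. Open triangles are lower bounds for Csf3, which had no UMI in blood, and dotted lines mark 2-fold. In the late stage cells Csf1 was higher at both steps (4.14 and 2.22), Csf3r was higher in blood than in marrow (1.51) and lower in tendon than in blood (-0.93), and Csf2ra lay near 0 (-0.11 and 0.07).

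Pathway genes around these receptors were read from lists that hold 39 genes of the files. The lists cover proximal signalling genes, negative regulators and lineage transcription factors. They also hold other ligand and receptor genes linked to the β common chain or to IL-34. In late stage neutrophil-like cells of tendon against blood, 1 of 14 proximal signalling genes was at least 2-fold higher (Gab2, an adaptor), beside 17.9% of all genes, and 4 were lower, beside 15.1%. Stat5a and Stat5b, which carry the GM-CSF signal, were among the lower ones. Stat5b was at 73.0 CPM in blood and 23.6 CPM in tendon. The median log2 ratio of the list was -0.03, and that of all genes was -0.05. Of the 8 negative regulators 2 were higher and none lower, beside the same 17.9% and 15.1%, with a median of 0.50. These were Socs1 (1.80 CPM in blood, 14.3 CPM in tendon) and Cish (0.719 and 8.91 CPM), both feedback inhibitors of cytokine receptors. The blood level of Cish lay below the 1.08 CPM that a count of 0 allows in late stage cells of blood. That of Socs1 was also low. The blood levels of both genes thus rest on few UMIs, and the size of their differences is not read. Of 7 lineage transcription factors 5 were higher (Cebpb, Cebpe, Klf4, Runx1 and Egr2) and none lower, again beside 17.9% and 15.1%, with a median of 1.51. Cebpb, a factor of emergency granulopoiesis, was at 547, 956 and 3101 CPM in marrow, blood and tendon.

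From marrow to blood, late stage neutrophil-like cells had none of 14 proximal signalling genes past the 2-fold point in either direction, beside 7.94% of all genes higher and 5.69% lower, with a median log2 ratio of 0.42 against 0.09 for all genes. Of 6 negative regulators 1 was higher (Socs3) and 1 lower (Dok2). Socs3, which inhibits the G-CSF receptor, was at 44.6 CPM in marrow, 224 CPM in blood and 204 CPM in tendon. In classical monocyte-like cells of tendon against blood, 4 of 8 negative regulators were higher (Socs1, Socs3, Cish and Dok2) and 2 were lower (Ptpn6 and Dok1), where 10.6% of all genes were higher and 18% lower. Of 15 proximal signalling genes 5 were lower and none higher, beside the same shares. Socs3 there was at 19.8 CPM in marrow, 138 CPM in blood and 296 CPM in tendon. Spi1, which encodes PU.1, was within 2-fold in late stage neutrophil-like cells, at 618, 867 and 524 CPM in marrow, blood and tendon.

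The other partners reported for IL-34 were found mainly outside the leukocytes. Ptprz1, a receptor phosphatase, was at 51.6 CPM in keratinocyte-like and 25.6 CPM in Schwann-like cells. Sdc1, the proteoglycan syndecan 1, was at 419 CPM in keratinocyte-like and 414 CPM in mural-like cells, with 33.0 CPM in macrophage-like cells of tendon.

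Over the 29 classes with at least 20 cells, each member's pattern was compared with that of 13506 genes by Pearson correlation of log2(CPM + 1). These classes share libraries and depth, so the values are descriptions. Csf1 was most like Myo1d (0.89), with the next gene at 0.74. Il34 was most like Snrpn (0.98), Mtss1l (0.97) and Hspb2 (0.97). Csf3 was most like Gm15728 (0.92) and Raet1d (0.89). Csf1r went with Clec4a3 (0.92), Adgre1 (0.90), which encodes F4/80 and was 1 of the macrophage markers, and Dpep2 (0.90). Csf2ra went with Alox5ap (0.94), Spi1 (0.93) and Pirb (0.92). Csf2rb went with Arpc3 (0.88) and with its copy Csf2rb2 (0.86). Csf3r went with Cd300lb, Pilrb2 and Fgd4, each at about 0.91. Csf2 had too few UMIs to be compared.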

How the data were processed

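The authors deposited 1 matrix of raw UMI counts for each library, made with Cell Ranger (5.0.1 in the matrix header) on mm10 according to the submitters' processing notes. From these counts, cells with at least 200 genes and at most 20% mitochondrial UMIs were kept, and the highest doublet scores were removed at 0.8% per 1000 cells (27, 38 and 198 cells in marrow, blood and tendon), because the automatic threshold marked 1, 32 and 6 cells. Each library, of 49580625, 22542581 and 90621052 UMIs in marrow, blood and tendon, was clustered by itself in scanpy 1.11.5 (2000 variable features without the 8 members, 30 components, 15 neighbours, Leiden resolution 1). A cluster was named when it held at least 3 markers and 40% of a list, a rule settled after the clusters had been seen. The members and lists were chosen with earlier results of these data known.

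UMIs of a class were summed and divided by all its UMIs. Poisson intervals were exact, ratios had the exact binomial split of the UMIs, and a count of 0 was set to 3 counts over the class. Genes named beside the members were those of the pathway lists and, for each member with at least 100 UMIs, the 3 genes of most similar pattern, of which 1 is not reported here. Of the pathway genes 39 were found, and Cebpd was not used here. Interval and ratio code was tested on simulated data. Without replicates no test was made. Depth sets the precision, and UMIs from free RNA are not removed. Alternatives changed the cell filter, doublets, resolution, features, clustering, naming, scaling and thinning.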

Additional observations from a re-analysis of the deposited data

How the results depend on the processing

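The 16 ratios and shares were recomputed in 166 ways, of which 125 moved by less than their counting interval, 41 by more, and no ratio past 2-fold changed sign. All 16 were over broad classes. Ratios of the finer classes, the shares of receptor chains and the endothelial share of Csf3 were not recomputed. Endothelial-like cells of tendon numbered 295, or 173 when cells were named one by one. No paired analysis was possible because each tissue has 1 library, and no replicate could be left out. The cause of a move was not tested. The tendon-to-blood log2 ratio of Csf3r in neutrophil-like cells (-0.63) became -0.51 with a filter of 500 genes and 10% mitochondrial UMIs and at resolution 2, -0.52 without a filter, -0.77 with the libraries clustered together, -1.36 with cells named one by one, -0.82 as a mean over cells and -0.92 without the 50 most abundant genes. The blood-to-marrow ratio of Csf3r (3.53) became 3.41 with that filter, 3.44 without one, 3.45 with no doublets removed and at resolution 2, 3.61 with doublets removed at 1.6% per 1000 cells, 3.60 at resolution 0.5 and 2.92 as a mean over cells. For Csf2rb the tendon-to-blood ratio (0.05) became -0.22 with cells named one by one, -0.14 as a mean over cells and -0.24 without the abundant genes, and that of Csf2ra (0.04) became -0.24 without them, so these near-zero ratios have no settled sign. The blood-to-marrow ratio of Csf2rb (1.48) became 1.38 with the stricter filter or none, 1.37 with no doublets removed and 1.26 as a mean over cells. The tendon-to-blood ratio of Csf1 (2.52) became 1.78 with cells named one by one. In monocyte/macrophage-like cells the tendon-to-blood ratio of Csf1r (0.13) became 0.27 with cells named one by one and -0.12, the other sign, as a mean over cells, and its blood-to-marrow ratio (1.32) became 1.19 and 1.21 under these and 1.42 without the abundant genes. That of Csf2rb from tendon to blood (-0.23) became -0.13 as a mean over cells and -0.060 with Csf2rb2 added. The neutrophil share of tendon Csf3r (67.6%) became 69.3% with the higher doublet rate or cells named one by one. The monocyte/macrophage share of Csf1r (96.2%) became 95.8% with the stricter filter, 95.5% without one, 94.4% with no doublets removed, 95.2% with the higher doublet rate, 95.4% at resolution 2, 92.8% with libraries together and 87.6% with cells named one by one, where the fibroblast/tenocyte share became 75.5% for Csf1 and 31.7% for Il34. The Csf2 share gave no value at the higher doublet rate. Members past the 2-fold point over the broad comparisons numbered 21, or 20 to 22 under the alternatives. Thinning to 500 or 2000 UMIs lowered or raised each share of cells with a UMI. Ratios of genes with few UMIs, such as Csf1 in marrow, Il34 and Csf2, are limited by depth.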
